A study of Mus musculus with 24 samples.

Results

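Cultures of dissociated mouse AGM cells that had been kept under wall shear stress (WSS) with the drug indomethacin for 36 h were compared with such cultures kept for 6 h, on 3 arrays each, 6 of the 24 arrays of the study. The arrays were chosen by their labels alone, and every gene with a detected probe was used, 12226 genes in all. AGM (aorta-gonad-mesonephros) tissue was dissected at embryonic day 10.5 from C57BL/6J embryos, and cells that had not attached to the channels were washed away before the timed culture began. Both groups received flow giving 5 dyne per cm2 and 10 uM indomethacin, so that time is the only labelled difference between them. A difference of batch between the 6 h and 36 h arrays could not be told apart from time. The labels give neither the composition of the vehicle nor when the drug was added. For comparison, the time change under WSS with vehicle and that in static culture (0.0001 dyne per cm2) with indomethacin or with vehicle were fitted in the same model, again with 3 arrays at each time. Each sample pooled 6 channels, the cells were an unsorted mixture, and nothing in the labels tells if a group's 3 samples were grown as separate cultures or from separate litters. The p-values hence speak only to the spread among these samples, which could be technical. In such mixed RNA, fewer cells of a type and less RNA per cell cannot be told apart.

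The AGM is the embryonic region where blood stem cells arise from specialised endothelium in the wall of the dorsal aorta, beside mesenchyme, muscle precursors, nerve tissue and the epithelial ducts of the early kidney. Wall shear stress is the drag of moving fluid on the cells that line a vessel, and endothelial cells answer it through transcription factors such as Klf2. Indomethacin blocks the cyclooxygenases, the enzymes that start the synthesis of prostaglandins such as prostaglandin E2, a lipid signal that raises cyclic AMP in its target cells.

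Levels are given as normalized log2 intensities, on which 1 unit is a doubling, and can be set side by side only for the same gene. A gene is said to have risen or fallen where its Benjamini-Hochberg adjusted p from limma was under 0.05 over all genes. By this measure 3759 genes (30.7%) differed between 36 h and 6 h. Of these 1782 rose (14.6% of the genes tested) and 1977 fell (16.2%), and the median change over all genes was -0.006. Counts of list members given below are to be read beside these shares. At least 2-fold rises were found for 492 genes and at least 2-fold falls for 334. The 3 arrays of one time lay wholly beyond the 3 of the other for 5852 genes (47.9%). Over the genes tested, arrays of the same time correlated at 0.991 to 0.993 (6 h) and 0.986 to 0.989 (36 h), and arrays of different times at 0.961 to 0.97. Single arrays stood apart in some gene lists. At 6 h, array 2 had a mean log2 level of 7.53 over the red cell genes against 9.85 and 9.86 on arrays 1 and 3, and it was also the lowest in macrophage genes (5.62 against 6.06 and 6.06), chemokine and acute phase genes (5.55 against 6.13 and 6.67) and megakaryocyte genes (5.78 against 6.38 and 6.67). At 36 h, array 3 was the lowest in neuronal genes, as given there, and in megakaryocyte genes (5.49 against 6.22 and 6.67).

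Among the largest rises were matrix genes (Mgp, Ogn) and pigment cell genes (Pmel, Dct). Chodl, which encodes the membrane lectin chondrolectin, stood at 6.62, 5.76 and 6.82 at 6 h and at 10.26, 9.67 and 9.17 at 36 h, a 9.84-fold rise (log2 difference 3.30, SE 0.39, adjusted p = 2.6e-06). Npy, the neuropeptide Y gene, went from 6.52, 5.87 and 6.48 to 9.13, 9.41 and 9.28, or 7.92-fold (log2 difference 2.99, SE 0.22, adjusted p = 9.4e-09). For both genes every 36 h array lay above every 6 h array by more than 2 log2 units. The other 10 of the 12 largest rises were Lrrc17 (2.86), Hic1 (2.75), Gsn (2.71), Mgp (2.69), Pmel (2.64), Ogn (2.63), Angptl4 (2.56), Lrrc15 (2.56), Msc (2.54) and Dct (2.53), each as a log2 difference. Pmel and Ogn were not detected on any 6 h array and on all 3 at 36 h, so that their rises are bounds of at least 5.37-fold and at least 4.26-fold.

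Sall4, a zinc finger factor of early embryonic cells, had the largest fall. It stood at 8.31, 8.83 and 9.02 at 6 h and at 5.50, 5.12 and 5.09 at 36 h, where it was detected on 2 of 3 arrays (11.2-fold, log2 difference -3.48, SE 0.25, adjusted p = 7.9e-09). Igdcc3 went from 10.16, 10.54 and 10.54 to 7.77, 7.63 and 7.35 (7.10-fold, log2 difference -2.83, SE 0.20, adjusted p = 7.9e-09). The imprinted long non-coding RNA Gtl2 (also Meg3) went from 11.07, 10.64 and 10.64 to 8.61, 8.03 and 7.91, a fall of 6.07-fold on the brighter of its 2 probes, while the other changed by -0.43. The files also list probes under Meg3, which RefSeq gives as the same gene, and the one tested under that name was dim and did not pass (5.89, 5.08 and 5.29 against 5.18, 4.59 and 5.25, adjusted p = 0.17). The 6 arrays separated by time for Sall4, Igdcc3 and the Gtl2 probe. Among the remaining 9 of the 12 largest falls with groups apart (clones without a gene name passed over), 4 were keratins (Krt14, Krt18, Krt19 and Krt8) and another, Cldn4, encodes a claudin of epithelial tight junctions. Krt14 was detected on no 36 h array and fell at least 6.27-fold. Slc7a3 (-2.42), Sct (-2.39), Zfp692 (-2.35) and Trim10 (-2.24) made up the rest.

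**Figure D1:**
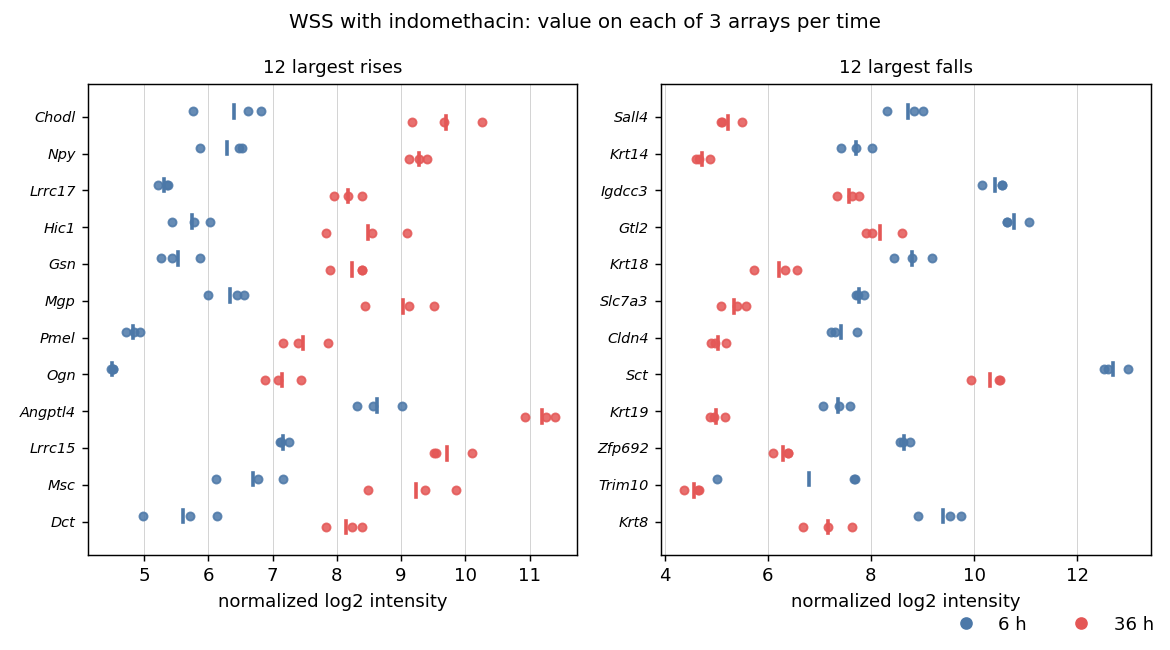
Normalized log2 intensity (horizontal axes) of the 12 genes that rose most and the 12 that fell most between 6 h (blue) and 36 h (red) under WSS with indomethacin. Each point is 1 of 3 arrays per time and each bar their mean. Genes were shown only if their 2 groups did not overlap, which leaves out the red cell genes Hba-x, Hbb-bh1 and Slc4a1. Trim10 has 1 of its 6 h arrays near the 36 h arrays.

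Skeletal muscle genes rose together. Of 15 tested members of the list, 13 rose and 0 fell, with a median log2 difference of 1.71. Myog, the factor that switches myoblasts into differentiation, was 7.50, 6.49 and 6.50 at 6 h and 9, 9.42 and 9.15 at 36 h (5.13-fold, log2 difference 2.36, SE 0.26, adjusted p = 1.6e-06). Myod1, a factor that commits cells to the muscle lineage, went from 6.40, 5.02 and 5.65 to 8.04, 7.68 and 7.53 (4.17-fold, adjusted p = 0.00025), with 2 of 3 arrays detected at 6 h. The groups did not overlap for either factor. The slow troponins Tnnt1 (2.05) and Tnnc1 (2.04), the light chain Mylpf (1.98), the acetylcholine receptor subunit Chrna1 (1.71) and the slow troponin Tnni1 (1.64) rose by the log2 differences given in brackets. Mylpf stood at 9.74, 8.89 and 9.45 at 6 h against 11.16, 11.42 and 11.45 at 36 h, and Chrna1 at 6.96, 6.13 and 6.55 against 8.08, 8.17 and 8.52. The 2 members that did not pass were the alpha-actins Acta1 (11.14, 11.23 and 11.11 against 11.56, 11.33 and 11.33, adjusted p = 0.45) and Actc1 (12.67, 13.30 and 12.82 against 13.04, 12.78 and 12.88, adjusted p = 0.95). Probes of Ttn, the giant spring protein of the sarcomere, disagreed in direction. The list's mean log2 level was 8.63, 8.01 and 8.24 on the 6 h arrays and 9.94, 9.86 and 9.78 on the 36 h arrays. Muscle genes also rose in the other time comparisons, 13 of 15 under WSS with vehicle, where 18% of all genes rose, and 10 of 15 in static culture with indomethacin (24.5% of all genes) and with vehicle (26%). In limma's tests of the difference from vehicle under WSS and from static culture with indomethacin 0 of the 15 passed.

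Myogenic factors such as Myod1 and Myog are known to bind DNA at E-boxes, of which CAGCTG is a form that reads the same on both strands. Promoters of RefSeq genes (build GRCm38.p6, 250 bases before to 50 after the start of transcription, the first start listed for a gene) were available for 13 of the 15 tested members, 1 of them with several starts. CAGCTG was found in 5 of these 13 promoters (38.5%) and in 16.3% of all 32851 promoters, a share that counts every listed start of a gene. The 5 were those of Acta1, Chrna1, Myl1, Mylpf and Tnni1, of which Acta1 did not rise. The promoters of 3 genes that rose and hold the motif, and that of Myog, which does not hold it in this window, are shown to place those letters, with CAGCTG in capitals.
Chrna1, chr2:73580289-73580588, minus strand: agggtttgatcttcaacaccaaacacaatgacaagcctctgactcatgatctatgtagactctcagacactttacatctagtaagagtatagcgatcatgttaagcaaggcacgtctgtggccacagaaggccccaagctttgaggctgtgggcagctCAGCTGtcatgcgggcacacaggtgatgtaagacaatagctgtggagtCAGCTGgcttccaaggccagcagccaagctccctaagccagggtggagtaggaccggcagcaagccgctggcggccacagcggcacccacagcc
Mylpf, chr7:127211358-127211657, plus strand: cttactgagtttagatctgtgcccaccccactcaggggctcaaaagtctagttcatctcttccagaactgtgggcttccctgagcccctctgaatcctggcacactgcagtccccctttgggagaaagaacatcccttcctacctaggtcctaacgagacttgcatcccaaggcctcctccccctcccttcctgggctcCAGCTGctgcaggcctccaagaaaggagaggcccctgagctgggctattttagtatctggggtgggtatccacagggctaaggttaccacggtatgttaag
Tnni1, chr1:135799171-135799470, plus strand: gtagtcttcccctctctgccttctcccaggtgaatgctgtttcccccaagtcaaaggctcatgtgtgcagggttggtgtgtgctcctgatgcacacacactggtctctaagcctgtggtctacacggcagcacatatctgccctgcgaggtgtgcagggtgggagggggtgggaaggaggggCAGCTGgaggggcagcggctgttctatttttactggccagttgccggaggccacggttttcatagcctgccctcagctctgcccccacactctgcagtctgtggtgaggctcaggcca
Myog, chr1:134289754-134290053, plus strand: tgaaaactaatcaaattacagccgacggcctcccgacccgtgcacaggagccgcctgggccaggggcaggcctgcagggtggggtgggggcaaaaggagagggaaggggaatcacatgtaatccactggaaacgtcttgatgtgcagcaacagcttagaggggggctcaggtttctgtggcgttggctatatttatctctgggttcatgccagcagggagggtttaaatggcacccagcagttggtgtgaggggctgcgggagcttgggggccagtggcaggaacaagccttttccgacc

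Many genes of the extracellular matrix rose, in shares that ranged over 5 lists. Of 13 tested collagen chains 8 rose and 0 fell (median 0.88), of 22 matrix glycoproteins and proteoglycans 11 and 0 (median 0.70), of 15 matrix proteases and their inhibitors 8 and 0 (median 0.83), of 13 basement membrane genes 6 and 0 (median 0.44), and of 11 collagen crosslinking genes 3 and 0 (median 0.12). Of these 3, P3h2, a collagen prolyl hydroxylase, lost its call without any one of 5 of the 6 arrays (adjusted p up to 0.14). Col6a3, a chain of the beaded-filament collagen, was 7.55, 6.84 and 7.01 at 6 h and 10.19, 9.14 and 9.02 at 36 h (4.98-fold, log2 difference 2.32, SE 0.43, adjusted p = 0.00032). Col1a2, a chain of the main fibrillar collagen, went from 7.68, 7.27 and 7.82 to 9.34, 8.77 and 9.09 (2.79-fold, adjusted p = 1.2e-06). Both showed no overlap between times. Mgp, an inhibitor of matrix calcification, rose 6.46-fold, and the leucine-rich proteoglycan Lum went from 6.85, 6.36 and 6.77 to 9.55, 8.99 and 8.18 (4.76-fold, adjusted p = 9.5e-05). Lox, the oxidase that crosslinks collagen and elastin, rose 3.09-fold (5.87, 5.68 and 5.84 against 7.42, 7.30 and 7.55). Among proteases and inhibitors, the gelatinase Mmp2 stood at 11.24, 11.22 and 11.24 at 6 h and at 12.35, 12.21 and 12.74 at 36 h (2.30-fold), while the protease inhibitors Serpine2 (2.71-fold), Timp2 (2.61-fold) and Timp1 (2.31-fold) rose as well. In the basement membrane list, Lama2 rose 2.23-fold and Nid2 1.56-fold. Nid1 rose by 1.03 log2 units on its brightest probe, but its detected probes disagreed in direction, and their mean gave -0.20 (adjusted p = 0.40).

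Contractile and mesenchymal genes moved the same way in smaller numbers. Of 13 smooth muscle genes 5 rose and 0 fell (median 0.37), and of 13 mesenchyme genes 4 rose and 1 fell (median 0.29). Actg2, the enteric smooth muscle actin, was 10.80, 10.16 and 10.46 at 6 h and 12.48, 12.84 and 13.23 at 36 h (5.21-fold, log2 difference 2.38, SE 0.32, adjusted p = 1.4e-05). Mylk, the kinase that activates myosin in smooth muscle, went from 9.36, 8.63 and 8.97 to 10.29, 9.85 and 10.19 (2.17-fold, adjusted p = 0.0018). Neither gene's groups overlapped. Of the mesenchymal genes, Thy1 rose 3.29-fold (7.30, 7.42 and 7.15 against 9.03, 8.93 and 9.06), and Pdgfrb, a receptor of pericytes and fibroblasts, rose 2.30-fold. Osr1, an early factor of kidney mesenchyme, fell by 0.48 log2 units on its brightest probe, and the mean of its probes gave -0.15 (adjusted p = 0.52).

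Epithelial genes and genes of the early embryonic Lin28 program fell. Of 9 tested urogenital and epithelial genes 6 fell and 0 rose (median -1.03), while Krt7, Pax8 and Lhx1 did not pass. Krt18, a keratin of simple epithelia, was 8.44, 9.18 and 8.79 at 6 h and 5.73, 6.34 and 6.56 at 36 h (6.04-fold, log2 difference -2.59, SE 0.36, adjusted p = 1.8e-05), and its partner Krt8 went from 8.91, 9.75 and 9.54 to 6.69, 7.16 and 7.64 (4.71-fold, adjusted p = 0.0013). Cldn6, a claudin of embryonic epithelium, fell 4.21-fold and was detected on 1 of 3 arrays at 36 h. The times did not overlap for these genes. The list had a mean log2 level of 7.13, 7.45 and 7.55 at 6 h and of 6.03, 6.05 and 6.07 at 36 h.

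Of 10 tested genes of the Lin28 and let-7 list 7 fell and 0 rose (median -0.97). Lin28a and Lin28b encode RNA-binding proteins that block the maturation of let-7 microRNAs, and let-7 in turn represses mRNAs such as Lin28b, Trim71 and Igf2bp1. Lin28b was 7.61, 8.09 and 8.10 at 6 h and 6.08, 6.11 and 5.87 at 36 h (3.77-fold, log2 difference -1.91, SE 0.21, adjusted p = 1.3e-06). Trim71, a ubiquitin ligase and classical let-7 target, went from 8.25, 8.33 and 8.39 to 6.39, 6.30 and 6.43 (3.87-fold, adjusted p = 3e-07). Igf2bp1, an mRNA-binding protein of fetal tissue, stood at 12.27, 12.30 and 12.14 against 11.15, 11.10 and 11.21 (2.12-fold, adjusted p = 2.4e-06), and Lin28a fell at least 1.38-fold, being detected on no 36 h array. The times were apart for all 4. The let-7 microRNAs themselves are not measured by these mRNA probes, so the mature let-7a (RefSeq, chr13:48538239-48538260, minus strand) is shown only to identify the seed, bases 2 to 8 in capitals, through which it pairs with its targets.
mmu-let-7a-5p: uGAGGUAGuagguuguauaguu

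**Figure D2:**
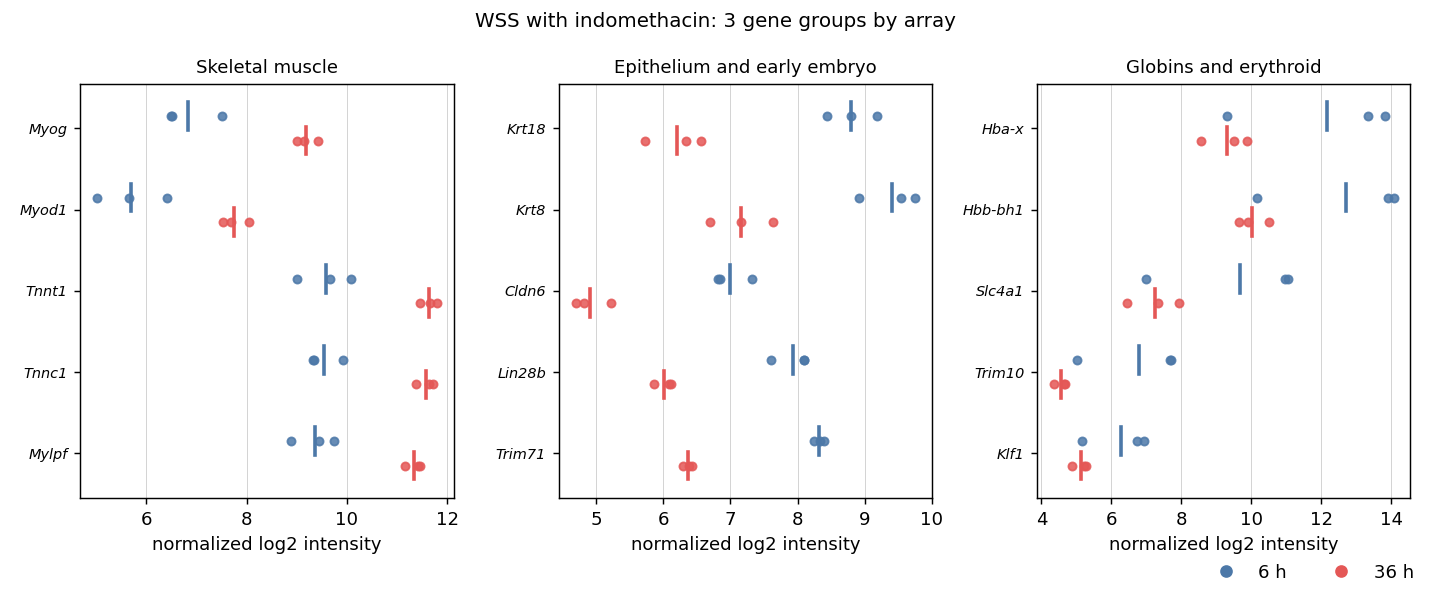
Normalized log2 intensity (horizontal axes) of 5 skeletal muscle genes, 5 epithelial and Lin28 program genes, and 5 red cell genes at 6 h (blue) and 36 h (red) under WSS with indomethacin, with 1 point per array and a bar for the mean of 3. Muscle genes sit higher at 36 h and epithelial and Lin28 program genes lower, with no overlap, while for each of the 5 red cell genes 1 of the 6 h arrays lies apart from the other 2, for 4 of them within the range of the 36 h arrays or next to it.

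Globin and other red cell genes were lower at 36 h, but by an amount that depended on 1 array. Of 13 tested members 7 fell and 0 rose (median -1.49). The embryonic alpha-like globin Hba-x stood at 13.32, 9.31 and 13.81 at 6 h and at 9.51, 9.87 and 8.56 at 36 h, and the embryonic beta-like globin Hbb-bh1 at 13.89, 10.17 and 14.06 against 9.64, 10.51 and 9.91. In both, array 2 of the 6 h group lay among the 36 h arrays, so that the groups overlapped. Over all 6 arrays Hba-x fell 7.13-fold (log2 difference -2.83, SE 0.78, adjusted p = 0.0084) and Hbb-bh1 6.43-fold (log2 difference -2.68, SE 0.72, adjusted p = 0.0075). Without array 2 of the 6 h group, 11 of the 13 members fell (median -2.52), Hba-x by 19.1-fold (adjusted p = 2.1e-05) and Hbb-bh1 by 15.5-fold (adjusted p = 3.8e-05). With array 1 or array 3 of the 6 h group left out instead, 2 or 3 members fell, and the adjusted p was 0.057 or 0.068 for Hba-x and 0.054 or 0.058 for Hbb-bh1. With only the 6 arrays compared in the fit 4 members fell, and the adjusted p was 0.067 for Hba-x and 0.052 for Hbb-bh1. Trim10, a red cell gene, was 7.68, 5.02 and 7.70 at 6 h and below detection on all 36 h arrays (4.65, 4.67 and 4.37), a fall of at least 3.31-fold (adjusted p = 0.0013). The summed log2 level of the 13 genes ran from 97.9 to 128.1 over the 6 h arrays and from 95 to 103 over the 36 h arrays.

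Endothelial genes fell in part. Of 17 tested members 6 fell and 0 rose (median -0.62), while 3 fell without array 2 of the 6 h group and 11 with array weights. Plvap, which forms the diaphragms of endothelial pores, was 6.65, 7.30 and 7.12 at 6 h and 5.95, 5.58 and 5.49 at 36 h (2.55-fold, log2 difference -1.35, SE 0.25, adjusted p = 0.00038). Ramp2, a co-receptor for adrenomedullin, went from 8.46, 9.03 and 8.90 to 7.67, 7.57 and 7.50 (2.32-fold, adjusted p = 0.00038), and Robo4, an endothelial guidance receptor, from 6.06, 6.72 and 6.83 to 5.35, 4.61 and 5.18 (2.80-fold, adjusted p = 0.0066). The 2 times did not overlap for these genes. The pan-endothelial markers were dim: VE-cadherin (Cdh5) gave 5.41, 6.07 and 6.08 against 5.49, 5.03 and 5.23 (adjusted p = 0.088), and Pecam1 was detected on 1 of 3 arrays at each time.

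Genes that respond to laminar flow in endothelium went both ways, with 6 of 14 rising and 2 falling (median 0.58). The list was not divided by whether flow raises or lowers a gene, so these numbers give no direction of a flow response. Ass1, which regenerates arginine for nitric oxide synthesis, was 6.42, 5.85 and 6.45 at 6 h and 8.06, 8.72 and 8.90 at 36 h (5.00-fold, log2 difference 2.32, SE 0.27, adjusted p = 2.4e-06). Vcam1, a leukocyte adhesion molecule, rose 3.34-fold, and Angpt2, a ligand of the Tie2 receptor, rose 2.72-fold. Edn1, the vasoconstrictor endothelin, went from 8.42, 8.71 and 8.60 to 6.60, 7.23 and 7.13 (3.02-fold lower, adjusted p = 0.022), and without array 2 or array 3 of the 6 h group or array 1 of the 36 h group its adjusted p was 0.063, 0.053 and 0.075. The shear-responsive factor Klf2 was 6.01, 6.70 and 6.78 at 6 h and 9.26, 6.99 and 7.53 at 36 h (log2 difference 1.43, adjusted p = 0.02), but array 1 of the 36 h group carried much of it, since without that array the difference was 0.76 (adjusted p = 0.16). It was also lost without array 1 of the 6 h group (adjusted p = 0.093). Nos3, the endothelial nitric oxide synthase, gave 5.17, 5.17 and 5.74 against 5.12, 4.76 and 4.97 (adjusted p = 0.16). In static culture with indomethacin 4 of the 14 rose and 4 fell, where 24.5% of all genes rose and 22.3% fell. Mean levels there went from 6.03 to 7.75 for Klf2, from 6.13 to 8.68 for Vcam1 and from 8.02 to 10.19 for Angpt2. For Ass1 they went from 6.65 to 7.16. The difference from the static time change passed for 2 of the 14, with 0 lower under WSS.

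Of 14 genes of blood stem cell emergence 3 rose and 2 fell (median -0.04), shares close to those of all genes. Kit, the receptor for stem cell factor, was 7.16, 7.31 and 7.38 at 6 h and 8.34, 8.54 and 8.68 at 36 h (2.36-fold, log2 difference 1.24, SE 0.17, adjusted p = 1.7e-05). Runx1, the factor required for blood to form from endothelium, went from 6.30, 6.37 and 6.51 to 7.19, 6.95 and 7.75 (1.87-fold, adjusted p = 0.012), with an adjusted p of 0.083 without array 3 of the 36 h group. The groups were apart for both. Kit also marks melanoblasts, whose genes rose as given further on, and their part in this rise was not tested. Cbfa2t3 rose by 0.98 on its brightest probe, where the mean over its probes gave 0.47 (adjusted p = 0.053). The 2 that fell, Gfi1b and Tal1, are factors of red cell and platelet precursors and followed the red cell genes in being low on array 2 at 6 h (4.69 and 4.59 against 6.24 to 6.25 and 5.77 to 5.81 on the other arrays). Neither passed without array 1 or array 3 of the 6 h group or array 2 or array 3 of the 36 h group. Gata2 gave a log2 difference of -0.37 (adjusted p = 0.24) and Itga2b, an early blood marker, 0.15 (adjusted p = 0.65).

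Of the other blood cell lists, 5 of 16 macrophage genes rose and 0 fell (median 0.52), 2 of which rose without array 2 of the 6 h group. Lyz2, a lysozyme of macrophages and granulocytes, was 6.41, 6.13 and 6.49 at 6 h and 7.70, 8.19 and 7.78 at 36 h (2.92-fold, adjusted p = 0.0039), and Trem2, a lipid receptor of macrophages, went from 5.47, 5.2 and 5.13 to 6.63, 6.39 and 6.52 (2.37-fold, adjusted p = 0.00075). Csf1r, the receptor that defines the lineage, did not follow, with 5.99, 5.61 and 5.91 against 5.69, 5.80 and 5.98 (log2 difference -0.01, adjusted p = 0.98). The calls lost in that way were those of the complement genes C1qb and C1qc and of Cd68 (adjusted p = 0.061, 0.059 and 0.068). The macrophage list's summed log2 level was 89.9 to 97 at 6 h and 104.1 to 105.1 at 36 h. MHC class II genes were mostly below detection, with 4 tested and 2 that rose, H2-Eb1 (at least 1.97-fold) and H2-DMa, the latter with an adjusted p of 0.078 without array 3 of the 6 h group. Few genes of the megakaryocyte (7 tested), lymphocyte (2), granulocyte (1) and mast cell (1) lists were detected, and of these 0 passed limma's test and 0 had an unadjusted p under 0.05, which 40.9% of all genes had. Without array 2 of the 36 h group the mast cell gene fell.

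Pigment cell genes rose. Of 5 tested genes of the glia and melanoblast list 4 rose and 0 fell (median 0.73). Dct, an enzyme of melanin synthesis and an early melanoblast marker, was 5.71, 4.99 and 6.14 at 6 h and 7.83, 8.23 and 8.39 at 36 h (5.79-fold, log2 difference 2.53, SE 0.36, adjusted p = 2.8e-05), and Pmel, the fibril protein of the melanosome, was 4.93, 4.84 and 4.72 against 7.16, 7.39 and 7.86. Ednrb, an endothelin receptor of neural crest cells, rose 1.51-fold (11.01, 10.88 and 10.99 against 11.60, 11.48 and 11.59, adjusted p = 0.00053). Every 36 h array lay above the 6 h arrays for these genes. The glial gene Fabp7 rose 1.66-fold (6.18, 6.15 and 6.01 against 6.51, 7.10 and 6.90, adjusted p = 0.027), a call lost without any one of 5 of the 6 arrays (adjusted p up to 0.12). Sox10, a factor of glia and pigment cells, did not pass (10.46, 10.46 and 10.42 against 10.27, 10.01 and 10.05, adjusted p = 0.20). Of 15 neuronal genes 2 rose and 2 fell (median 0.19), shares close to those of all genes. Stmn3 rose 2.35-fold and the motor and sympathetic neuron factor Isl1 went from 10.06, 9.78 and 9.79 to 8.85, 9.52 and 7.90 (2.17-fold lower, adjusted p = 0.0016). Array 3 of the 36 h group was the lowest of the 3 in Stmn3 and Isl1 alike, and the list's mean log2 level on the 36 h arrays was 8.19, 8.56 and 7.65 against 8.06 to 8.15 at 6 h. Without that array 4 neuronal genes rose and 1 fell, and without any other single array 1 rose. The falls also numbered 1 without array 2 or 3 of the 6 h group or array 1 of the 36 h group.

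Genes of DNA replication and mitosis fell in part, and p53 targets, the cell cycle inhibitor Cdkn1a among them, rose in part. Of 24 DNA replication genes 12 fell and 0 rose (median -0.39), and of 18 mitosis genes 8 fell and 0 rose (median -0.35). Mcm5, a subunit of the replicative helicase, was 12.85, 13.05 and 12.93 at 6 h and 12.31, 11.92 and 11.86 at 36 h (1.88-fold, log2 difference -0.91, SE 0.17, adjusted p = 0.00034). Cdc6, which loads that helicase, went from 9.77, 9.84 and 9.80 to 9.14, 8.83 and 8.67 (1.90-fold, adjusted p = 1e-04), and Cdt1, its partner in loading, from 11.47, 11.55 and 11.43 to 10.61, 10.43 and 10.57 (1.93-fold, adjusted p = 3.6e-05). For the 3 genes the times were apart. In the mitotic genes Tpx2 and Mki67, array 1 of the 36 h group lay nearest to the 6 h level: Tpx2 was 9.64, 9.76 and 9.75 against 9.27, 8.84 and 8.97 (1.61-fold, adjusted p = 0.0013), and the proliferation marker Mki67 was 8.94, 8.97 and 9.03 against 9, 8.29 and 7.85 (adjusted p = 0.093). The number of mitosis genes that fell was 3, 3, 4 and 2 without array 2 or 3 of the 6 h group or array 2 or 3 of the 36 h group, and 3 with only these 6 arrays in the fit.

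Of 14 p53 target genes 7 rose and 0 fell (median 0.49). Cdkn1a, the p21 inhibitor of cyclin-dependent kinases, was 10.09, 10.04 and 10.11 at 6 h and 11.57, 11.50 and 11.83 at 36 h (2.94-fold, log2 difference 1.55, SE 0.22, adjusted p = 2.9e-05). Trp53inp1 rose 2.25-fold (9.65, 9.51 and 9.39 against 10.71, 10.60 and 10.74), the death receptor Fas 2.21-fold and Ccng1 1.97-fold. No 36 h array reached down to the 6 h range for any of the 4.

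Replication genes are textbook targets of E2F factors, whose sites include the letters TTTCCCGC and TTTGGCGC. Of the 19 tested replication genes with a RefSeq promoter 6 (31.6%) held at least 1 of these motifs on either strand, against 1.56% of all 32851 promoters. Again the first start was taken for a list member, and every listed start was counted for all promoters. The 6 were Cdc6, Cdt1, Mcm3, Mcm5, Mcm6 and Mcm7, of which Mcm3 and Mcm7 were not among the genes that fell. The promoters of Mcm5 and Cdc6 are shown with the match in capitals, where it reads as the reverse complement of the motif. It starts at position -149 in Mcm5 and at -138 in Cdc6, counted from the start of transcription.
Mcm5, chr8:75109259-75109558, plus strand: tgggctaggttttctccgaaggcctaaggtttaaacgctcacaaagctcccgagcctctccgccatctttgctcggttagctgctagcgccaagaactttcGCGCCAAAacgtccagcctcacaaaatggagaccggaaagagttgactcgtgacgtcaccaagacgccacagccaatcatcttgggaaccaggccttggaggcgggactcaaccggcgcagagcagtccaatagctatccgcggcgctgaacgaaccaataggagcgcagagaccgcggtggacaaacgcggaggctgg
Cdc6, chr11:98907901-98908200, plus strand: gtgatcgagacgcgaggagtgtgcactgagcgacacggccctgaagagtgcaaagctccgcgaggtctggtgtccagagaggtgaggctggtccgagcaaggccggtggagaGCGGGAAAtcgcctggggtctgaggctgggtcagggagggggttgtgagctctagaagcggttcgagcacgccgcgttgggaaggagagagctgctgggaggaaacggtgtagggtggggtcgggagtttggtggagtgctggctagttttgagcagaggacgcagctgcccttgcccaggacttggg

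Part of the aminoacyl-tRNA synthetase and ribosome biogenesis genes fell, and part of the respiratory chain subunits rose. Of 13 aminoacyl-tRNA synthetases 8 fell and 0 rose (median -0.52), of 15 ribosome biogenesis genes 7 fell and 0 rose (median -0.38), and of 15 ribosomal protein genes 2 rose and 0 fell (median 0.14). Those 2 rises, of Rpl22 and Rps19, numbered 0 without array 1 or 2 of the 6 h group or array 2 of the 36 h group and 1 without array 3 of either group. Iars, which charges tRNA with isoleucine, was 11.50, 11.55 and 11.41 at 6 h and 10.89, 10.64 and 10.75 at 36 h (1.66-fold, log2 difference -0.73, SE 0.14, adjusted p = 0.00041). Gnl3, a nucleolar GTPase, went from 12.93, 13.02 and 12.81 to 12.14, 11.92 and 12.02 (1.86-fold, adjusted p = 1.1e-05), and Ncl, the nucleolin gene, fell 1.91-fold. These genes' times did not overlap. In the respiratory chain 10 of 20 subunits rose and 0 fell (median 0.42), with 6 that rose when array 1 or 2 of the 6 h group or array 2 or 3 of the 36 h group was left out. Ndufa1, a subunit of complex I, was 11.49, 11.45 and 11.43 against 12.18, 12.45 and 12.43 (1.86-fold, adjusted p = 0.00032), and Cox7a2, of cytochrome oxidase, rose 1.69-fold.

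Genes of lysosomes and lipid handling rose in 12 of 18 cases with 0 falls (median 0.64). Gpnmb, a glycoprotein of lysosomes and melanosomes, was 8.91, 8.48 and 8.67 at 6 h and 11.14, 10.89 and 10.94 at 36 h (4.93-fold, log2 difference 2.30, SE 0.27, adjusted p = 2.4e-06). Lipa, the acid lipase, rose 2.19-fold and Hexa, a hexosaminidase subunit, 2.02-fold (8.70, 8.65 and 8.80 against 9.76, 9.67 and 9.75). Cd63 of the lysosomal membrane rose 1.92-fold. The 36 h arrays lay above those of 6 h for each of them. Gpnmb and Apoe are also expressed by macrophages and pigment cells, whose markers rose too, and their part in these values was not tested. Of 11 PPAR targets and genes of fatty acid oxidation 4 rose and 0 fell (median 0.32), led by Angptl4, an inhibitor of lipoprotein lipase (9.02, 8.31 and 8.57 against 11.26, 10.93 and 11.40, 5.90-fold). Pdk4, a pyruvate dehydrogenase kinase, rose 2.43-fold. Of 15 cholesterol synthesis genes (median -0.04) and 9 fatty acid synthesis genes (median -0.08) 0 passed limma's test in either direction, and 0 and 3 had an unadjusted p under 0.05, the 3 being lower at 36 h. Without array 1 of the 36 h group 2 cholesterol synthesis genes and 3 fatty acid synthesis genes fell, and without array 2 of the 6 h group 1 fatty acid synthesis gene did.

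Immediate early genes, which stimuli induce within minutes, rose in 8 of 15 cases with 0 falls (median 0.97). Fos was 10.17, 9.49 and 9.97 at 6 h and 12.11, 11.20 and 11.27 at 36 h (3.15-fold, log2 difference 1.66, SE 0.32, adjusted p = 0.00045). Fosb rose 3.82-fold from 5.89, 5.71 and 6.05 to 8.69, 7.83 and 6.93, and Zfp36, which destabilises cytokine mRNAs, rose 2.58-fold (8.14, 7.66 and 7.83 against 9.57, 8.88 and 9.28). Array 1 of the 36 h group was the highest of its group in Fos, Fosb, Zfp36 and Egr2 (8.68, 7.71 and 8.07). Egr3 rose by 1.95 on its brightest probe, while another of its probes had the opposite sign.

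Of 14 heat shock genes 6 fell and 1 rose (median -0.15). Hsph1, a chaperone of the Hsp110 family, stood at 12.31, 12.32 and 12.31 at 6 h and at 11.66, 11.08 and 11.39 at 36 h (1.91-fold, log2 difference -0.94, SE 0.15, adjusted p = 7.1e-05), and Hspb1 fell 2.10-fold. The rise of the small heat shock protein Hspb8 (0.45, adjusted p = 0.048) was lost without any one of the 6 h arrays or array 2 of the 36 h group. Of 15 genes of the ATF4 amino acid response 5 fell and 1 rose (median -0.34). Trib3, a pseudokinase induced by ATF4, was 8.96, 7.57 and 8.91 against 6.49, 6.40 and 6.18 (4.36-fold, adjusted p = 0.0032), and Shmt2, of mitochondrial one-carbon metabolism, went from 8.64, 8.70 and 8.62 to 7.66, 7.60 and 7.60 (2.05-fold, adjusted p = 0.00021). The count of falls was 3 without array 1 or 2 of the 6 h group or array 1 of the 36 h group, and that of rises was 2 without array 1 or 3 of the 6 h group or array 1 of the 36 h group. Sesn2, a stress-induced regulator of mTORC1, was the member that rose (1.61-fold, adjusted p = 0.013).

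Of 15 hypoxia targets 4 fell and 1 rose (median -0.07). Vegfa, the main growth factor of vessels, was 10.69, 9.97 and 10.40 at 6 h and 9.24, 9.46 and 9.54 at 36 h (1.92-fold lower, adjusted p = 0.0032). The count of falls was 2 without array 1 of the 6 h group. The member that rose, the clock repressor Bhlhe40, lost its call without array 2 of the 6 h group or array 3 of the 36 h group (adjusted p up to 0.11). Of 15 glycolysis genes 1 fell, Slc2a1, the glucose transporter (11.58, 11.36 and 11.35 against 10.72, 10.88 and 11.01), which lost its call without array 1 of the 6 h group (adjusted p = 0.1) or array 1 or 2 of the 36 h group (0.088 and 0.061). The count of glycolysis genes that fell was 0 without array 1 of the 6 h group or array 2 of the 36 h group, 3 without array 2 of the 6 h group and 2 without array 3 of the 36 h group, and it was 4 with array weights, 3 with no background correction or with the trend and robust variance model, and 2 under 5 further settings. Pdk1 gave 7.88, 6.71 and 7.55 against 6.75, 6.82 and 6.92 (adjusted p = 0.29), with overlapping groups. Of 16 NRF2 targets 4 rose and 2 fell (median 0.14), among them Gsta4, a glutathione transferase (2.15-fold, adjusted p = 0.004). Nqo1, a quinone reductase, rose by 1.07 (adjusted p = 0.017) and Hmox1, heme oxygenase, by 1.02 (adjusted p = 0.032). Without array 2 of the 6 h group or array 3 of the 36 h group 2 NRF2 targets rose, and the adjusted p was 0.07 and 0.068 for Nqo1 and 0.091 and 0.14 for Hmox1. Hmox1 was also lost without array 3 of the 6 h group (0.08) or array 2 of the 36 h group (0.059). The falls numbered 0 without array 1 of the 36 h group and 1 without any other single array.

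Among signalling pathways, 5 of 13 genes of the TGF-beta list, which holds ligands and receptors beside targets, rose and 1 fell (median 0.30). Of 11 Notch genes 4 rose and 1 fell (median 0.34), and of 15 Wnt genes 5 rose and 1 fell (median 0.05). In the IGF system 3 of 9 genes rose and 1 fell (median 0.41), and 3 of 13 BMP and Id genes rose with 0 falls (median 0.24). Tgfbr2, the type II receptor for TGF-beta, was 8.59, 8.68 and 8.77 at 6 h and 9.93, 9.38 and 9.77 at 36 h (2.02-fold, log2 difference 1.01, SE 0.15, adjusted p = 3e-05). Heyl and Hey1, repressors switched on by Notch, rose 2.18-fold and 2.15-fold, and Hes1 went from 10.53, 10.24 and 10.44 to 11.65, 10.76 and 11.59 (1.90-fold). Dkk1, a secreted Wnt antagonist, fell from 5.73, 6.24 and 6.17 to 5.12, 4.51 and 4.61 (2.46-fold, adjusted p = 2.3e-05), while its relative Dkk3 rose 2.14-fold. The Wnt rises numbered 3 without array 2 of the 6 h group or array 2 of the 36 h group. With only the 6 arrays compared in the fit 5 IGF genes rose, and 5 BMP and Id genes rose with 2 falls (5 and 3 with array weights). The single fall in the TGF-beta list, Tgfb1i1, was lost without array 2 of the 6 h group or array 1 or 2 of the 36 h group, and that in the Notch list, the endothelial receptor Notch4, without array 2 of the 6 h group or array 3 of the 36 h group. Igf1 rose from 7.04, 6.10 and 6.72 to 8.54, 8.39 and 8.05 (3.27-fold, adjusted p = 0.00044), Igfbp3, which binds it, 2.49-fold, and the adaptor Irs2 fell 1.88-fold.

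Indomethacin acts on the prostaglandin pathway, of which 9 genes could be tested. Of these 2 rose and 0 fell (median 0.12), where 14.6% of all genes rose and 16.2% fell. Ptgis, which makes prostacyclin, was 9.08, 9.03 and 9.24 at 6 h and 9.47, 10.02 and 10.03 at 36 h (1.65-fold, log2 difference 0.72, SE 0.15, adjusted p = 7e-04). Abcc4, an exporter of prostaglandins and cyclic AMP, rose 1.44-fold with an adjusted p of 0.047, which was 0.061 to 0.24 without any one array other than array 3 of the 6 h group. It was also over 0.05 under 5 other settings, the replicate block among them (adjusted p = 0.055). Ptges, a prostaglandin E synthase, stood at 5.18, 5.81 and 6.06 against 5.78, 5.52 and 6.10 (adjusted p = 0.76), and Hpgd, which degrades prostaglandins, at 5.52, 5.06 and 5.11 against 5.32, 5.42 and 4.80 (adjusted p = 0.91), with overlap in both. The drug's target Ptgs2 and the receptors Ptger2 and Ptger4 never reached detection on all arrays of a group, and Ptgs1 has no listed probe. The cyclic AMP list holds components of the pathway, such as Prkaca and Creb1, beside targets. Of its 14 tested genes 2 rose, close to the 14.6% of all genes that rose, and 0 fell (median 0.33). Without array 2 of the 6 h group 0 rose and 1 fell. The rises numbered 1 without array 1 of the 6 h group or array 1 or 2 of the 36 h group.

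Of the lists not yet described, the chemokine and acute phase list held the most calls. Of its 13 tested members 3 rose and 4 fell (median 0.10). The chemokine Ccl9 went from 6.02, 5.77 and 6.24 to 8.16, 8.32 and 7.55 (4-fold, adjusted p = 0.0041), whereas the interferon-induced chemokine Cxcl10 fell at least 1.74-fold (5.94, 5.76 and 5.92 against 4.64, 4.95 and 4.63). The count of falls was 2 without array 1 of the 6 h group or array 2 of the 36 h group. Cxcl12, the chemokine that holds blood stem cells in their niche, gave 11.81, 11.76 and 11.86 against 12.37, 11.67 and 11.99 (adjusted p = 0.36). Rises and falls numbered 2 and 0 of 11 interferon and MHC class I genes, 0 and 1 of 6 complement genes, 1 and 0 of 12 YAP targets, 1 and 2 of 13 imprinted growth regulators, 1 and 1 of 9 clock genes, 0 and 3 of 14 Hox genes and 0 and 1 of 3 primordial germ cell genes. With only the 6 arrays compared in the fit 3 complement genes, 3 YAP targets and 5 Hox genes fell. The 2 rises in the interferon list were Tap1 and B2m. Without array 3 of the 36 h group Tap1 lost its call (adjusted p = 0.052), and without array 2 of the 6 h group 1 member fell. The rise of Cdkn1c among the imprinted genes was lost without array 2 or 3 of the 6 h group or array 1 or 2 of the 36 h group. Among the clock genes, the rise of Dbp was lost without array 2 of the 6 h group, and the fall of Clock without array 1 or 2 of the 6 h group or array 3 of the 36 h group. The imprinted gene Phlda2 fell 2.66-fold (7.61, 7.62 and 7.74 against 5.93, 6.52 and 6.29, adjusted p = 1.1e-05). The imprinted list holds Meg3 only by its dim probe, so the fall described above under the name Gtl2 is not in its count.

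**Figure D3:**
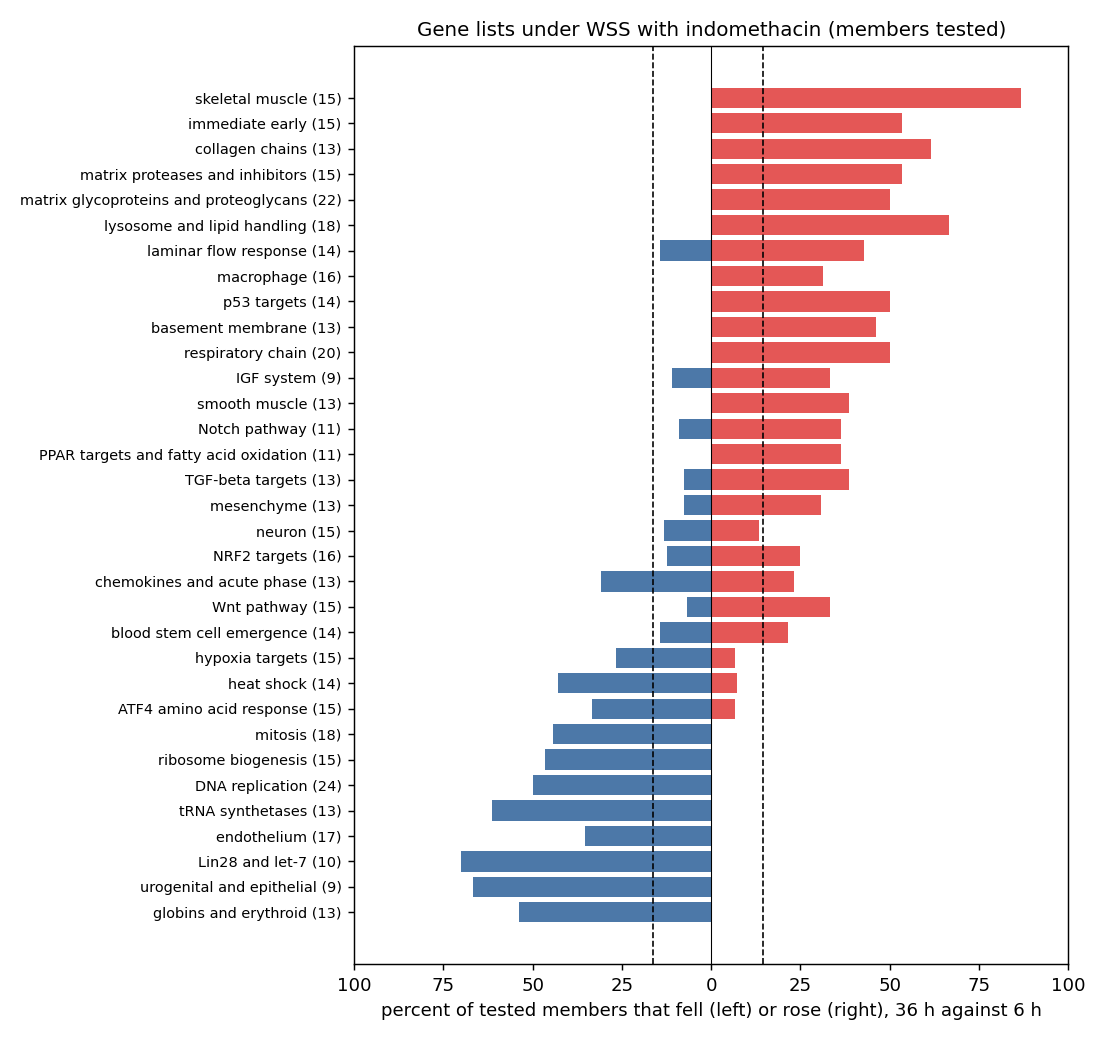
Share of tested members of each gene list (number in brackets) that rose (red, to the right) or fell (blue, to the left) at 36 h against 6 h under WSS with indomethacin, as percent of members tested, for lists of at least 9 tested genes with at least 4 calls, ordered by median change. Dashed lines mark the shares of all tested genes, 14.6% up and 16.2% down. Skeletal muscle reaches 13 of 15 to the right, and the Lin28 and let-7 list 7 of 10 to the left.

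The time change with indomethacin was set against the time change with vehicle under the same shear stress, to ask whether the drug altered it. Of 12226 genes 0 (0%) passed the limma test of the difference, and 394 (3.22%) had an unadjusted p under 0.05. Without array 3 of the WSS indomethacin 6 h group 1 gene passed. The 95% interval of a single gene's difference, not adjusted for the number of genes, reached a median of 0.51 log2 units to each side. The adjusted test asks for more than this, so that differences larger than 0.51 could also be missed with 3 arrays a group. The smallest p values belonged to Gcap26, Clec4g and Fcgr3. Gcap26 went from 7.03, 7.24 and 7.34 to 5.78, 5.63 and 5.80 with indomethacin (log2 difference -1.46) and by -0.50 with vehicle, which differ by -0.96 (95% interval -1.44 to -0.48, unadjusted p = 0.00043, adjusted p = 1). Clec4g and Fcgr3 were below detection on all 6 indomethacin arrays under WSS. The log2 difference of Myog was 2.36 with indomethacin and 2.00 with vehicle, and that of Mgp 2.69 and 2.46. Of the genes that passed with indomethacin, 2947 (78.4%) passed in the same direction with vehicle, which is 67.4% of the 4372 genes (35.8%) that passed there, and 0 passed in opposite directions. Across genes, which are not independent replicates, the 2 sets of log2 differences correlated at 0.893. A p that misses the threshold does not show that the drug left the time change as it was.

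In static culture with indomethacin 5731 genes (46.9%) changed with time, 22.3% falling, and with vehicle 6231 (51%), 25% falling. Under WSS with vehicle 17.7% had fallen. Of the genes that passed under WSS with indomethacin, 2724 (72.5%) changed the same way in static culture with indomethacin. These were 47.5% of the static calls with the drug, and 23 genes changed the opposite way. The difference between the 2 time changes itself passed for 356 genes (2.91%), being higher under WSS for 172 (1.41%) and lower for 184 (1.5%). Same-numbered WSS and static arrays of a time deviated together, and with the number within each time as a block 370 genes passed, 224 of the 356 among them. The 19 genes named for this difference passed with that block too. In 178 of the 356 genes the 2 time changes had opposite signs, in 159 they had the same sign and were smaller under WSS, and in 19 larger. The count of 356 rested on single arrays in part, since it was 116 and 144 without array 2 or 3 of the 6 h WSS group, 139 without array 1 of the 36 h WSS group, 145 and 205 without array 1 or 2 of the static 6 h group and 193 without array 2 of the static 36 h group.

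**Figure D4:**
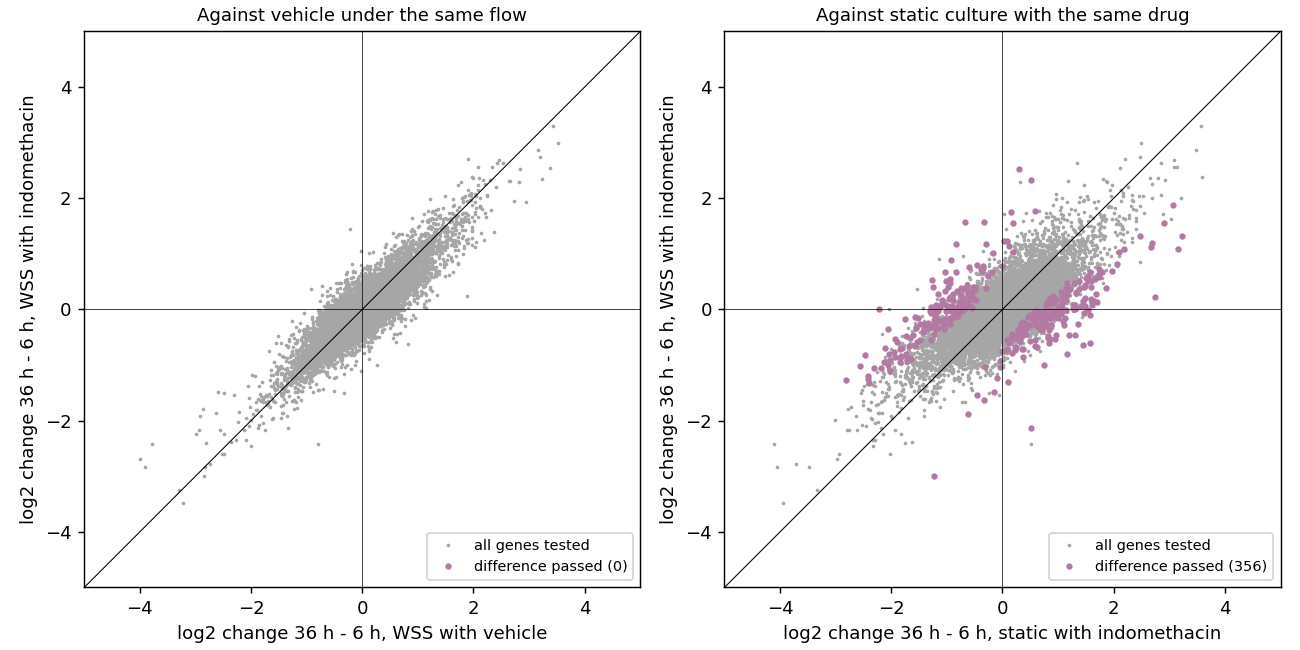
Log2 change from 6 h to 36 h of each tested gene under WSS with indomethacin (vertical axes) against the same change under WSS with vehicle (left) and in static culture with indomethacin (right). Grey points are all 12226 genes, purple points those whose difference between the 2 changes passed (0 on the left, 356 on the right), and the diagonal marks equal changes.

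Dct, Ass1, Cdkn1a, Kit and Matn4 had larger rises under shear stress than in static culture. Dct rose by 2.53 log2 units under WSS and gave 0.30 in static culture, a difference of 2.23 (SE 0.51, adjusted p = 0.025). For Ass1 the 2 values were 2.32 and 0.51 (difference 1.81, SE 0.38, adjusted p = 0.015), and without 1 of the 12 arrays the adjusted p reached 0.072 for Dct and 0.051 for Ass1. Cdkn1a (1.55 against 0.18, adjusted p = 0.025, and up to 0.062 without any one of 3 arrays), Kit (1.24 against 0.07, adjusted p = 0.014) and the cartilage-type matrix protein Matn4 (1.76 against 0.15, adjusted p = 0.014) followed with smaller differences. For Aire and Espn the levels in static culture were lower at 36 h than at 6 h. Aire, the autoimmune regulator, was below detection on all 6 WSS arrays and went in static culture from 6.91 ± 0.33 to 4.69 ± 0.10 (SD, n = 3), giving, against WSS values not above background, a difference of 2.23 (adjusted p = 0.0011). Another of its probes had the opposite sign of time change under WSS. Espn, an actin-bundling protein, went from 6.43 ± 0.16 to 5.59 ± 0.46 in static culture and from 4.92 ± 0.25 to 6.10 ± 0.03 under WSS (SD, n = 3, difference 2.02, adjusted p = 0.002). Sostdc1, an antagonist of BMP and Wnt signals, had a difference of 2.26 (adjusted p = 0.032), which lost its call without any one of 7 of the 12 arrays (adjusted p up to 0.087).

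For Nupr1, Gal and Gbp2 the time change was lower under shear stress. Nupr1, a stress-induced chromatin protein, went from 6.78 ± 0.46 to 9.93 ± 0.08 in static culture and from 6.37 ± 0.09 to 7.46 ± 0.57 under WSS (SD, n = 3, difference -2.06, adjusted p = 0.014). The neuropeptide gene Gal went from 7.47 ± 0.20 to 8.92 ± 0.46 and from 6.98 ± 0.37 to 6.35 ± 0.37 in the same order (difference -2.08, adjusted p = 0.003), and the interferon-induced GTPase Gbp2 from 5.01 ± 0.14 to 6.57 ± 0.13 and from 6.12 ± 0.35 to 5.52 ± 0.08 (difference -2.16, adjusted p = 0.0019). Static and WSS cultures were thus further apart at 36 h than at 6 h for Nupr1 and Gal, and had changed order for Gbp2. Trib3 (difference -2.64, adjusted p = 0.049) and the hormone gene Fgf21 (difference -2.53, adjusted p = 0.041) passed narrowly, Fgf21 being detected on 1 of the 6 WSS arrays, and each lost its call without any one of 11 of the 12 arrays (adjusted p up to 0.12 and 0.096). Mylk rose in both settings, by 1.12 under WSS and by 2.66 in static culture (difference -1.55, adjusted p = 0.024, and up to 0.053 without any one of 4 arrays).

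**Figure D5:**
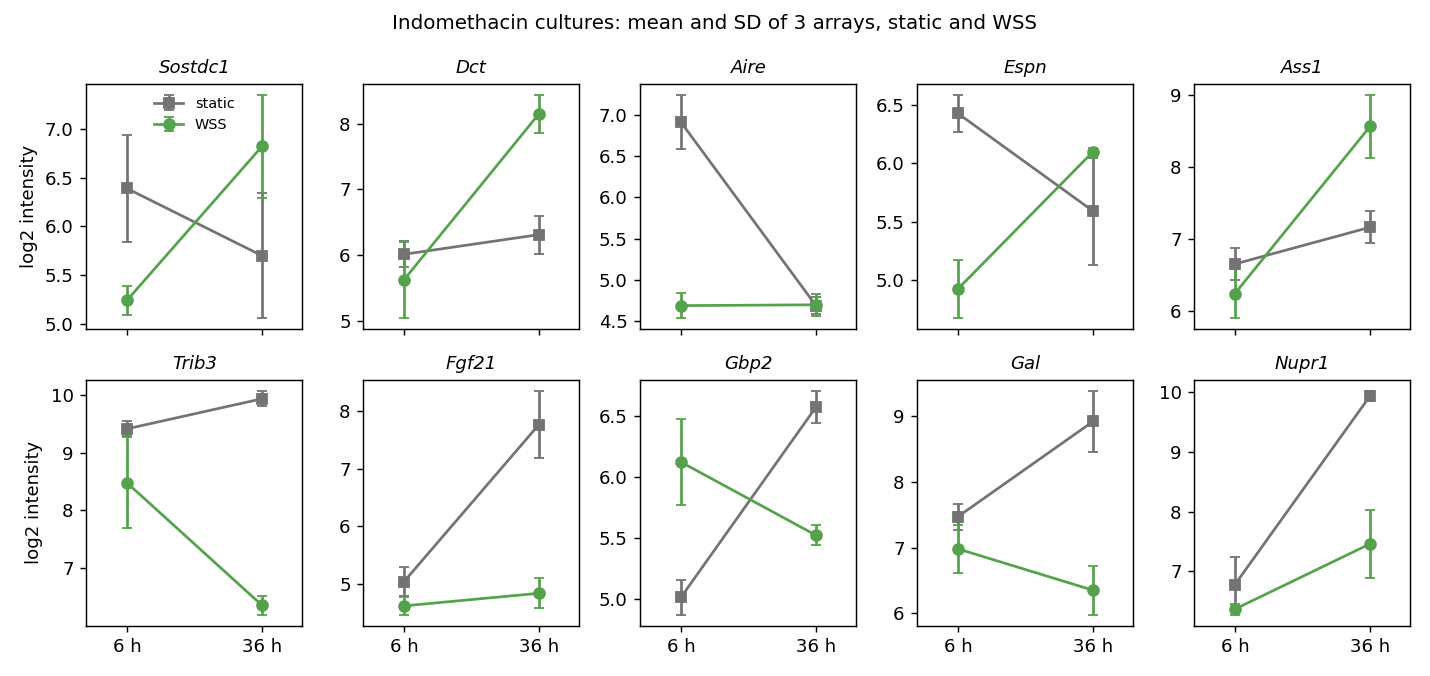
Log2 intensity (vertical axes, mean and SD of 3 arrays) at 6 h and 36 h in static (grey squares) and WSS (green circles) cultures with indomethacin, for the genes with the 5 most positive (top row) and 5 most negative (bottom row) differences from the static time change among those whose difference passed. Dct goes from 5.62 to 8.15 under WSS and from 6.01 to 6.31 in static culture, and Nupr1 from 6.37 to 7.46 and from 6.78 to 9.93.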

How the data were processed

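Total RNA was labelled and hybridised to Illumina bead arrays, per the labels' protocols, with 24 arrays in 8 groups of 3. The deposited table holds a signal intensity and a detection p-value for each of 45281 probes on each array, and per the file headers it is not normalized. The labels do not name the export software. The authors also deposited processed intensity values, background-subtracted and quantile normalized to judge by the values, which served as an alternative only.

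Background was corrected by normexp (neqc), for which the negative controls' signals were derived from detection p-values, with an offset of 16. Quantile normalization and log2 followed (limma 3.58.1, R 4.3.3). A probe was kept if some group had it detected (p under 0.05) on each of its 3 arrays, which left 21251, and the brightest probe stood for each of 12226 genes. Symbols were updated from RefSeq through Entrez identifiers (28620 probes) or accessions (2637), and 4527 probes kept the file's symbol. A linear model with a mean per group was fitted to all 24 arrays (16 residual degrees of freedom, 21.4 after moderation), with p-values adjusted by the Benjamini-Hochberg method over all genes. The same fit tested the time change against that with vehicle under WSS and against that in static culture with indomethacin. Where all 3 arrays of the dimmer group were not detected, only a bound is given, the brighter mean against the mean of, per array, the higher of the probe's own value and the lowest detected signal. The code was tested on simulated data.

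The genes named are the 12 largest rises and falls among those that passed with groups apart, the 5 largest differences in each direction between time changes among those that passed (or, where none did, the 3 smallest p), up to 5 passing members of each of 54 lists, other list members where their list is described, and a fixed panel that includes Csf1r and Ptges. Genes without a name were passed over. The members and lists were chosen with earlier results of these data known.

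Replicate numbers in the labels were checked as pairs by correlating deviations from group means. Those of the 6 h and 36 h arrays compared gave 0.05, -0.05 and 0, so that the numbers were not taken to pair these arrays. Between WSS and static culture with indomethacin they gave 0.12, 0.21 and 0.15 at 6 h and 0.15, 0.12 and 0.15 at 36 h, and these arrays were also fitted with the number within each time as a block. Arrays carry no counts, so their number limits the precision.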

Additional observations from a re-analysis of the deposited data

Results flagged for a closer look

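For 19 of the genes named, the time change under WSS with indomethacin differed from that in static culture with the same drug, by limma's test of the difference itself. The time change was more positive under WSS for Sostdc1 (2.26, as the log2 change under WSS minus that in static culture), Aire (2.23), Dct (2.23), Espn (2.02), Ass1 (1.81), Matn4 (1.61), Cdkn1a (1.37), Kit (1.16), Sesn2 (1.05) and Ednrb (0.86). It was more negative for Trib3 (-2.64), Fgf21 (-2.53), Gbp2 (-2.16), Gal (-2.08), Nupr1 (-2.06), Krt14 (-1.76), Mylk (-1.55), Dkk1 (-1.4) and Car9 (-1.29).

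Beyond those described with the static comparison, Ednrb changed by 0.59 log2 units under WSS and by -0.26 in static culture (adjusted p = 0.0092, and 0.1 with the mean of its probes), and Sesn2 by 0.69 and -0.37 (adjusted p = 0.047, lost without any one of 11 of the 12 arrays). Krt14 was lower at 36 h in both, with measured changes of -3 under WSS, where no 36 h array detected it, and -1.24 in static culture. Its difference (adjusted p = 0.028) therefore rests on a value not above background, and it lost its call without any one of 7 of the 12 arrays (adjusted p up to 0.076). Dkk1 had time changes of -1.3 and 0.1 (adjusted p = 0.0075). Its static levels, 4.68 at 6 h and 4.78 at 36 h, were near that of Krt14 where no array detected it (4.72). The static change of 0.1 hence cannot be read as a steady level, since a fall could hardly have been seen there. Car9, a carbonic anhydrase induced by hypoxia, gave 8.18 at 6 h and 8.8 at 36 h in static culture, but under WSS it was detected on 2 of 3 arrays at 6 h and on none at 36 h, where only a fall of at least 1.14-fold can be given. Its measured changes of -0.67 and 0.62 (adjusted p of the difference = 0.022, and 0.064 with the authors' processed values) hence include values not above background. Its other probes changed by -0.34 to 0.12 under WSS, and the fall there did not pass with the mean of probes (adjusted p = 0.22), an offset of 50 (0.13), no background correction (0.087) or the authors' processed values (0.12).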

How the results depend on the processing

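With 3 arrays a group, the count of genes changed with time was 2776 to 3616 without 1 of the 6 arrays (1283 to 1739 that rose, 1493 to 1877 that fell) and 3395 to 4938 under the other settings tried. Those settings changed the background correction, the normalization, the filter on dim probes, the choice of probe, the arrays in the fit, their weights or the variance model. The median over all genes moved to at most 0 and at least -0.012, and 46.2% to 48.7% of the genes that passed had risen. Of the 212 named genes that passed, 155 kept the call without each array in turn, and 176 kept it under every other setting. The counts under vehicle and in static culture stayed within 1.5 times, at 3392 to 4156 (WSS with vehicle), 4732 to 5446 (static with indomethacin) and 5455 to 5927 (static with vehicle) without 1 array. With the replicate block the main count was 3865 (1841 rose, 2024 fell), and 4475, 5815 and 6330 genes passed in the other time comparisons in that order. For drug by time the block gave 0 genes and leaving out 1 array 0 to 1.

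The flow by time count was the least stable. It was 116 to 400 without 1 array (57 to 213 higher, 59 to 198 lower), 1092 with array weights (533 higher, 559 lower), which kept 350 of the 356 calls, and 407 with the replicate block over all arrays (205 higher, 202 lower). Median scaling gave 306 lower. A block for the number within each time, chosen after seeing the data and fitted on the arrays compared alone, gave 370 (167 higher, 203 lower) and kept 224 of the 356 calls. The cause of these differences was not tested.

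Counts of list members also moved under settings other than leaving out an array, beside those given with the lists. With only the 6 arrays compared in the fit, rises numbered 2 in the heat shock list, 3 in the clock list, 0 among hypoxia targets and 1 each among glycolysis, complement and neuronal genes, and falls 1 each among smooth muscle, interferon and stem cell emergence genes. With array weights 4 genes of the cyclic AMP list, 4 ribosomal protein genes and 3 heat shock genes rose. In the same fit 3 fatty acid synthesis genes and 5 Hox genes fell.

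Genes near no change turned sign. Csf1r gave 0 with median scaling, 0.01 with array weights and -0.12 to 0.07 without 1 array. Hpgd gave 0 with median scaling, 0.06 with the authors' processed values, and -0.17 to 0.14 without 1 array (0.1 and 0.14 without array 1 at 6 h or array 3 at 36 h). Ptges gave -0.13 to 0.31, being below 0 without the same 2 arrays (-0.13 and -0.03). Actc1 gave 0.01 with median scaling and with the mean of probes, and -0.16 to 0.15 without 1 array (0.15 and 0.03 without array 2 at 6 h or 36 h). With the mean of probes Nid1 gave -0.2 and Rps19 -0.03, since other probes of these genes went the opposite way. Signal over background limited the dim genes, whose changes are bounds or not given.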
